A study of Mus musculus with 6 samples.

Results

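RNA of 10 transcription factors of the adipogenic cascade was examined in subcutaneous inguinal white fat (iWAT) of *Hlx* transgenic mice. The factors are the CCAAT/enhancer-binding proteins *Cebpa*, *Cebpb*, *Cebpd* and *Cebpg*, the Krüppel-like factors *Klf4*, *Klf5*, *Klf9*, *Klf11* and *Klf15*, and the zinc-finger factor *Gata2*. They were chosen by gene symbol among the 19445 rows of the deposited table, and each of the 10 symbols had 1 row. The study has 2 groups, *Hlx* transgenic (TG) mice and wild-type (WT) littermate controls, with 3 mice per genotype, 1 library per mouse, all labelled male and 12 weeks old, and no treatment. The transgene is an *Hlx* cDNA behind the *aP2* (*Fabp4*) promoter, which is active in adipocytes, and the sources used here do not say how many transgenic lines gave the 3 mice. *Hlx* itself had 109.7, 79.6 and 99.5 FPKM in the TG and 6.88, 7.35 and 8.14 FPKM in the WT mice, matching the labels, and the values do not part the transgene from the endogenous gene. FPKM is a read density scaled to transcript length and mapped reads, so levels of different genes can be set side by side.

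Some features of the 6 libraries bear on all of the values. Read counts were not used here and the absolute depth is unknown, and the depth relative to WT replicate 3, judged by the spacing of low FPKM values, ran from 0.692 in TG replicate 3 to 1.41 in WT replicate 2. Although the labels give males, *Xist*, the RNA of the inactive X chromosome of females, stood between 20.2 and 33.6 FPKM in all 6 libraries, and all 28 Y-linked loci were listed at 0. The labelled tissue carried its defining markers. The 9 adipocyte markers with a row included *Adipoq*, *Plin1* and *Fabp4*. They summed to between 31071 and 36588 FPKM in TG and between 26749 and 32920 FPKM in WT mice. Most of each sum was *Fabp4*, at 24561 to 29363 FPKM in TG and 19297 to 23539 FPKM in WT mice. The sums therefore mainly follow that 1 gene. Of the 9 markers, 4 had a log2 fold change below 0, *Adipoq* and *Lpl* among them. TG replicate 2 had the most skeletal muscle RNA, with 10 muscle markers summing to 847.7 FPKM, against 118.1 and 167.8 FPKM in the other TG and 9.48 to 182.8 FPKM in the WT libraries. Fewer cells of a type and less RNA per cell cannot be told apart in whole tissue.

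C/EBP proteins are basic leucine zipper factors that bind DNA as dimers. In cultured preadipocytes C/EBPβ and C/EBPδ appear first after the hormonal stimulus and precede C/EBPα, which together with PPARγ maintains the mature adipocyte, while C/EBPγ lacks an activation domain of its own and pairs with the others. Krüppel-like factors bind CACCC boxes and GC-rich sites through C-terminal zinc fingers, and several of them act at different stages of the same cascade, some before and some after the first C/EBPs. GATA2 marks preadipocytes and restrains their conversion to adipocytes. C/EBPβ also takes part in brown fat determination as a partner of Prdm16, the co-activator with which Hlx was studied.

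Of the 10 genes, 1 rose and 1 fell in the iWAT of TG mice at a limma adjusted p under 0.05, and these were 2 members of the same family. *Cebpb* rose by 49.9% and *Cebpd* fell by 41.5% in mean FPKM. Calls in either direction were made at 18.6% of the 11692 loci past the expression filter (a mean over 1 FPKM in at least 1 genotype), at 11.6% for higher and 7.03% for lower loci, so 2 of 10 is close to the background share. All 10 genes passed the filter, *Klf5* through its WT mean alone. For 7 of them the log2 fold change was below 0, against 51.6% of all tested loci, and the median over the 10 was -0.25 against -0.01 over all tested loci. The groups did not overlap for 4 of the 10, against 42.9% of all tested loci, with *Cebpb* higher (background 22.8%) and *Cebpd*, *Cebpa* and *Klf9* lower (background 20.1%). For these 4 genes the exact permutation test over the 6 mice gave p = 0.1 (two-sided), the smallest it can give.

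**Figure D1:**
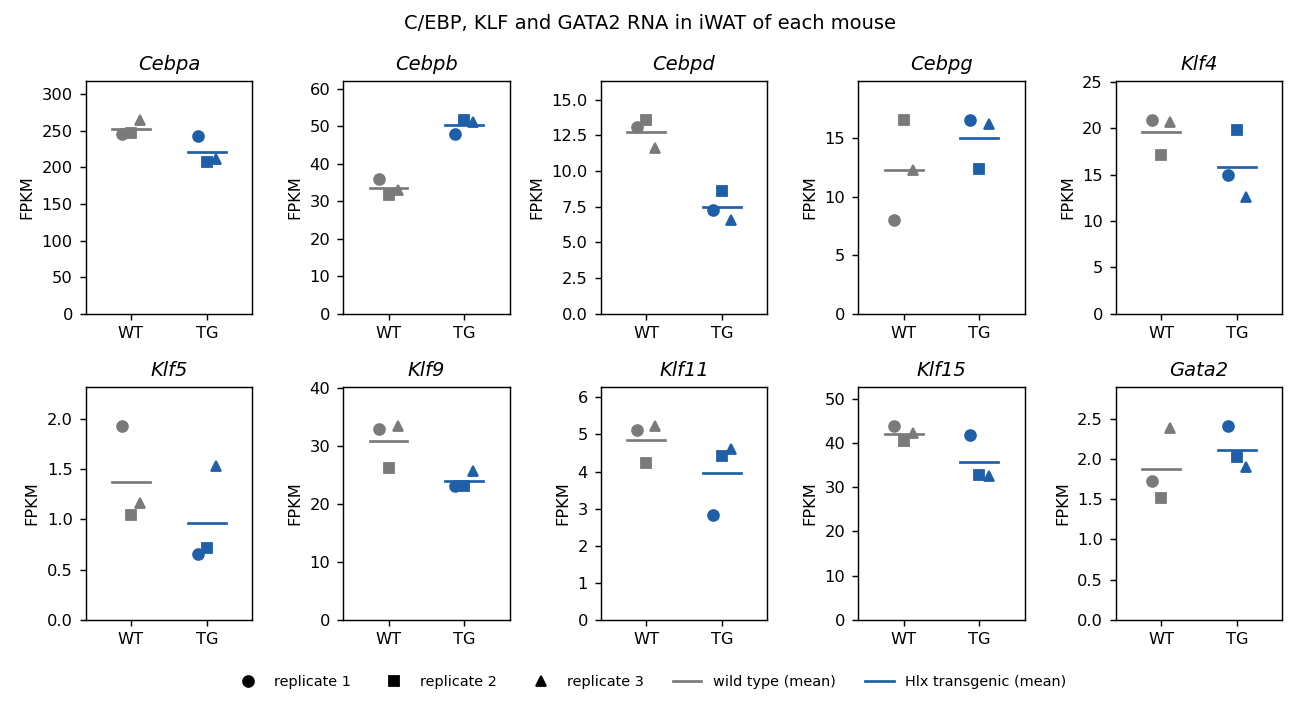
FPKM of the 10 factors in each of the 6 libraries, with wild type (WT) in grey and *Hlx* transgenic (TG) in blue; symbols mark replicates 1 to 3, which are different mice in the 2 genotypes, bars mark the mean of 3 mice, and each linear axis starts at 0. The groups are apart for *Cebpb* (47.8 to 51.7 against 31.6 to 35.8 FPKM), *Cebpd*, *Klf9* and, narrowly, *Cebpa*.

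The upstream sequences of *Cebpb*, the gene that rose, and of *Cebpa*, the most abundant of the family, are shown as the RefSeq reference of GRCm38.p6 gives the 250 bases before the annotated start. Each reads 5′ to 3′ on the plus strand, from chr2:167688665-167688914 and chr7:35119043-35119292, and capitals mark TGACG, the half-site of the cAMP response element, or CCACCC, the box that Krüppel-like factors bind, on either strand.
*Cebpb*: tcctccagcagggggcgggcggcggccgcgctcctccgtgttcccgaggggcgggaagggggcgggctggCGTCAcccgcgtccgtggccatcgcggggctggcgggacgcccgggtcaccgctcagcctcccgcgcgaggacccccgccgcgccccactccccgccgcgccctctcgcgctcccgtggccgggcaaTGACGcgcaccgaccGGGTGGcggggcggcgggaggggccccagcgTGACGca
*Cebpa*: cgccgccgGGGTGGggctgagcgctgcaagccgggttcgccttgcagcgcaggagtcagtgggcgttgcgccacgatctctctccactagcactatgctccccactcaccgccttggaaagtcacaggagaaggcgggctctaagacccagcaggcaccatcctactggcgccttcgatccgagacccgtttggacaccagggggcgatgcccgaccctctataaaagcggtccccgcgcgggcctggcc

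Reference promoters were found for 8 of the 10 genes in 9 windows, *Gata2* having 2 of them. The TGACG half-site was present in 4 of these windows, those of *Cebpb*, *Klf4*, *Klf9* and *Klf15*, and in 17.8% of all 32851 promoters of the same length. In *Cebpb* it stood at positions -180, -53 and -7 from the start. The CCACCC box was in 2 windows, *Cebpb* and *Cebpa*, and in 28.1% of all promoters. The C/EBP motif TTGCNNAA, the GATA motif AGATAA and the palindromic glucocorticoid response element, searched on both strands, were in 0 of the 9 windows, and in 9.56%, 9.99% and 0.387% of all promoters. Genes that differed in direction shared letters here. TGACG was found upstream of *Cebpb*, which rose, and of *Klf9* and *Klf15*, which had lower means in TG mice.

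*Cebpb*, a single-exon gene on chromosome 2 (mm10, 167688915 to 167690418, plus strand), had 47.8, 51.7 and 51.1 FPKM in the 3 TG mice and 35.8, 31.6 and 33.0 FPKM in the 3 WT mice. The lowest TG mouse stood above the highest WT mouse, and each group spread over a few FPKM. The mean was 50.2 ± 2.06 FPKM in TG and 33.5 ± 2.11 FPKM in WT mice (SD, n = 3 each). On the log2(FPKM + 1) scale the difference was 0.57 (standard error 0.08, 95% interval 0.38 to 0.76, limma adjusted p = 0.00451). Without TG replicate 2, the library with the most muscle RNA, it was 0.55 (adjusted p = 0.0153). In GENCODE M21 the *Tmem189* gene on the opposite strand overlaps *Cebpb*, and the kit does not mark strand, so reads of this overlap cannot be told apart.

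*Cebpd* moved the other way. It had 7.24, 8.60 and 6.56 FPKM in TG mice and 13.1, 13.6 and 11.6 FPKM in WT mice. Every TG value was under every WT value, and the mean fell from 12.8 ± 1.05 to 7.47 ± 1.04 FPKM (SD, n = 3 each), a ratio of 0.585. The log2 fold change was -0.70 (standard error 0.11, 95% interval -0.97 to -0.44, limma adjusted p = 0.00756), and without TG replicate 2 it was -0.80 (adjusted p = 0.00700). The gene lies on chromosome 16 (15887286 to 15891031, plus strand), but its row in the table is given an interval of 260 kb that also covers *Spidr*, a DNA repair gene on the opposite strand. No other row used here falls in that interval, so reads of *Spidr* may count toward this value. *Cebpd* is also expressed in macrophages. The 9 macrophage markers with a row summed to 612.6 to 901.1 FPKM in TG and 1111 to 1516 FPKM in WT mice, and none was at 0 in all libraries. Of the 9 tested, 4 fell (*Cd68*, *Csf1r*, *Cd163* and *Lyz2*), against 7.03% of all tested loci. All 9 had a log2 fold change below 0, against 51.6%, with a median of -0.58 against -0.01. The part of macrophage RNA in the fall of *Cebpd* was not tested.

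*Cebpa*, whose product sustains the mature adipocyte, was by far the most abundant of the 10, at 243.7, 207.3 and 212.1 FPKM in TG and 245.3, 247.7 and 265.2 FPKM in WT mice. In WT mice its level was above that of 97.8% of tested loci. The 3 TG values lay under the 3 WT values, but TG replicate 1 nearly reached WT replicate 1. The mean was 221.0 ± 19.8 against 252.7 ± 10.8 FPKM (SD, n = 3 each), and the log2 fold change of -0.20 (95% interval -0.43 to 0.04) did not pass the test (limma adjusted p = 0.209). Quantile normalization gave -0.52 (adjusted p = 0.0130), with the range of the adjusted p over all alternatives from 0.0130 to 0.415. The antisense gene *Gm45091* overlaps the start of *Cebpa* (chromosome 7, 35119293 to 35121928, plus strand).

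*Cebpg*, the family member without its own activation domain, had 16.6, 12.4 and 16.2 FPKM in TG and 8.01, 16.6 and 12.3 FPKM in WT mice. These ranges overlap, and the highest WT value equals the highest TG value to 3 digits. On the log2 scale the difference was 0.31 with a 95% interval from -0.26 to 0.88 (limma adjusted p = 0.382), and it was 0.06 without WT replicate 1 and 0.54 without WT replicate 2. The row shares its interval with *Pepd*, the neighbouring prolidase gene, which had 47.6, 65.4 and 48.5 FPKM in TG and 111.6, 54.9 and 72.1 FPKM in WT mice. WT replicate 1 was at once the library with the most *Pepd* and the least *Cebpg*, and whether reads were shared between them was not tested.

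The balance within the family was compared inside each library, where the scaling of a library drops out. The ratio of *Cebpb* to *Cebpa* FPKM was 0.196, 0.249 and 0.241 in TG and 0.146, 0.128 and 0.124 in WT mice. The groups did not overlap, and the log2 difference of 0.78 gave an exact permutation p = 0.1 (two-sided, n = 3 each), the smallest the design allows. Summed over the 4 C/EBP genes, the FPKM was 293.7 ± 19.0 in TG and 311.3 ± 10.1 in WT mice (SD, n = 3 each). *Cebpb* made up 17.2% ± 1.76 of this sum in TG and 10.8% ± 0.927 in WT mice, *Cebpa* 75.2% ± 1.82 and 81.2% ± 1.15, and *Cebpd* 2.55% ± 0.450 and 4.11% ± 0.446 (SD, n = 3 each). The ratio of *Cebpb* to *Cebpd* was 6.61, 6.01 and 7.79 in TG and 2.73, 2.33 and 2.85 in WT mice. This pair was chosen after its values were seen and was not tested. Any reads that the *Cebpd* and *Cebpg* rows share with *Spidr* and *Pepd* would also enter the sum, the shares and this ratio.

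**Figure D2:**
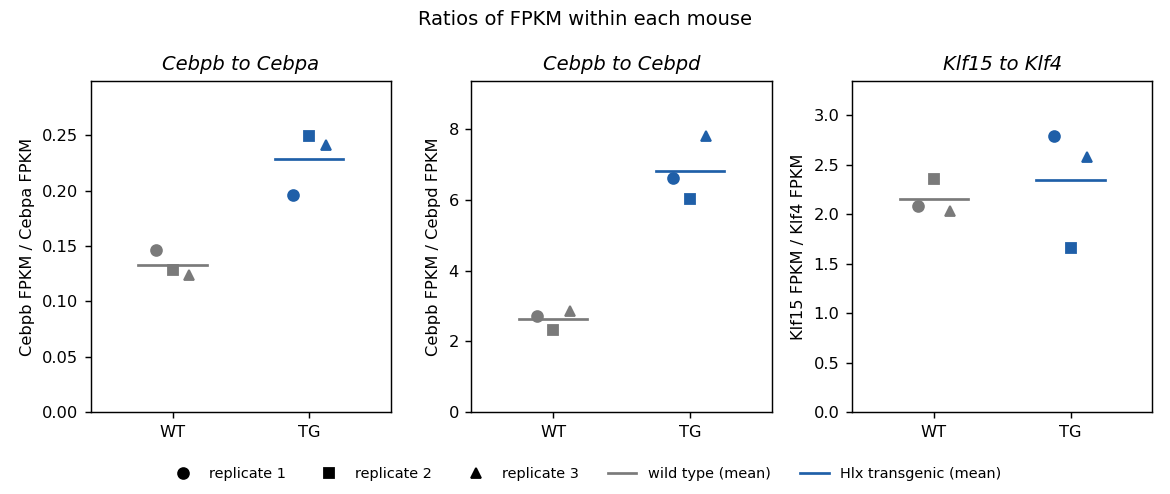
Ratios of FPKM within each library for *Cebpb* to *Cebpa*, *Cebpb* to *Cebpd* and *Klf15* to *Klf4*, with WT in grey, TG in blue, symbols for replicates 1 to 3, bars for the mean of 3 mice and axes from 0. Both *Cebpb* ratios are higher in every TG than in every WT mouse, while the *Klf15* to *Klf4* ratios overlap.

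The 5 Krüppel-like factors all had lower means in TG mice, by 15.2% to 29.9%, and none passed the test. Over all tested loci, 51.6% had a log2 fold change below 0. The 29.9% is that of *Klf5*, which passed the expression filter through its WT mean alone. *Klf9*, a glucocorticoid- and thyroid hormone-induced factor that supports adipogenesis, came nearest. It had 23.1, 23.0 and 25.6 FPKM in TG and 32.8, 26.1 and 33.4 FPKM in WT mice. The highest TG and the lowest WT value were within 1 FPKM of each other, although the groups did not overlap. The log2 fold change was -0.35 (standard error 0.11, 95% interval -0.61 to -0.08), with a limma adjusted p of 0.0713. It was -0.46 without WT replicate 2 (adjusted p = 0.0337) and -0.40 with quantile normalization (adjusted p = 0.0486), over a range of 0.0337 to 0.195 for all alternatives.

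*Klf15*, which acts late in adipogenesis and on the glucose transporter gene *Slc2a4* and amino acid catabolism, had 41.7, 32.8 and 32.5 FPKM in TG and 43.8, 40.3 and 42.1 FPKM in WT mice. TG replicate 1 lay inside the WT range and the other 2 TG mice below it. The log2 fold change was -0.24 (95% interval -0.50 to 0.02, limma adjusted p = 0.165), and without TG replicate 1 it was -0.36 (adjusted p = 0.0390, range 0.0390 to 0.364 over the alternatives).

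*Klf4*, an early inducer of *Cebpb* in cultured preadipocytes that is also expressed in endothelium and epithelium, had 14.9, 19.8 and 12.6 FPKM in TG and 20.9, 17.1 and 20.7 FPKM in WT mice. The groups overlapped through TG replicate 2, and without that library the log2 fold change moved from -0.31 (95% interval -0.70 to 0.08, limma adjusted p = 0.215) to -0.48 (adjusted p = 0.0499). Without TG replicate 3 it was -0.17 (adjusted p = 0.476, range 0.0499 to 0.476 over the alternatives). The highest *Klf4* of the TG group therefore came from the library with the most muscle RNA. Their connection was not tested. The ratio of *Klf15* to *Klf4* was 2.34 ± 0.603 in TG and 2.16 ± 0.173 in WT mice (SD, n = 3 each, exact permutation p = 0.8, two-sided).

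*Klf5*, which links C/EBPβ and C/EBPδ to *Pparg* during differentiation, was the scarcest of the 10, at 0.655, 0.711 and 1.53 FPKM in TG and 1.93, 1.04 and 1.16 FPKM in WT mice. The log2 fold change of -0.28 had a 95% interval from -0.80 to 0.23 (limma adjusted p = 0.383), and at these levels the pseudocount of 1 understates changes. It was -0.17 without TG replicate 1, -0.12 without WT replicate 1 and -0.48 without TG replicate 3, and also -0.52 with a pseudocount of 0.1 and -0.09 with sample weights, with adjusted p from 0.168 to 0.789 over the alternatives. *Klf5* is an epithelial factor too. The 11 epithelial markers with a row summed to 147.3, 204.6 and 291.4 FPKM in TG and 339.9, 280.5 and 242.9 FPKM in WT mice. WT replicate 1 was highest and TG replicate 1 lowest in both measures, 0 of the 11 markers passed the test, and their part in the *Klf5* values was not tested. *Klf11*, a factor tied to the brown adipocyte program, had 2.82, 4.43 and 4.62 FPKM in TG and 5.11, 4.23 and 5.23 FPKM in WT mice. Its low TG mouse was replicate 1, and the log2 fold change of -0.26 (95% interval -0.65 to 0.13, limma adjusted p = 0.301) was -0.08 without it.

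*Gata2* had 2.41, 2.02 and 1.90 FPKM in TG and 1.73, 1.52 and 2.39 FPKM in WT mice. The ranges overlap over most of their length. The difference was 0.12 on the log2 scale with a 95% interval from -0.22 to 0.46 (limma adjusted p = 0.586). It was 0.05 without TG replicate 1, 0.08 without WT replicate 1, 0.03 without WT replicate 2 and 0.24 without WT replicate 3, with adjusted p from 0.290 to 0.924 over the alternatives. *Gata2* is also expressed in endothelial and mast cells. The 12 endothelial markers summed to 242.9 to 266.5 FPKM in TG and 242.2 to 254.5 FPKM in WT mice, where *Kdr* and *Emcn* rose and *Cldn5* fell. The 8 mast cell markers summed to 82.5 to 167.8 FPKM in TG and 118.2 to 232.9 FPKM in WT mice. Of the 7 tested, 0 were called and 7 had a log2 fold change below 0, with a median of -0.58. The shares of all tested loci were 11.6% called higher, 7.03% called lower and 51.6% below 0. *Ms4a2*, one of their defining genes, reached at most 0.347 FPKM. Over the 6 libraries *Mcpt4* had 22.0 to 76.3, *Tpsb2* 26.9 to 64.1, *Kit* 5.46 to 10.9 and *Fcer1a* 0.192 to 1.56 FPKM. The part of these cells in the *Gata2* values was not tested.

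**Figure D3:**
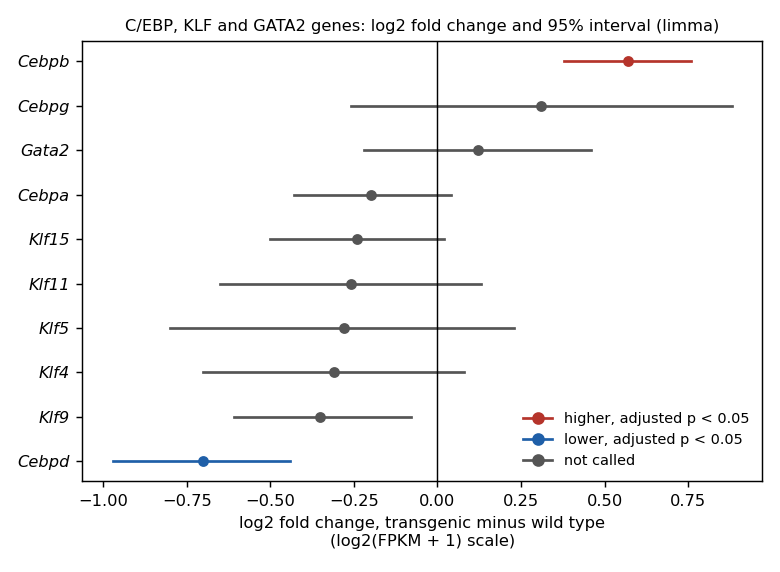
Log2 fold change (TG minus WT, on the log2(FPKM + 1) scale) of the 10 factors with the 95% interval from limma, in red where the gene rose, blue where it fell and grey where it was not called at an adjusted p under 0.05. *Cebpb* at 0.57 and *Cebpd* at -0.70 stand at opposite ends, and the intervals of the others other than *Klf9* include 0.

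By level, the order in WT mice was *Cebpa*, *Klf15*, *Cebpb*, *Klf9*, *Klf4*, *Cebpd*, *Cebpg*, *Klf11*, *Gata2* and *Klf5*. The ranges of *Cebpb* and *Klf9*, of *Cebpd* and *Cebpg*, and of *Gata2* and *Klf5* overlapped there. In TG mice *Cebpb* stood second, with all 3 values above those of *Klf15*, and *Cebpd* stood below *Cebpg* with no overlap. The levels of *Klf4* and *Cebpg* overlapped in TG mice. The rows of *Cebpd* and *Cebpg* may share reads with *Spidr* and *Pepd*, as described above, which limits their place in this order.

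The related regulators were taken as lists. Of the 12 other Krüppel-like factors, 7 passed the filter, *Klf13* fell and the other 6 were not called, with a median log2 fold change of -0.07. The share called lower over all tested loci was 7.03%. *Klf13* fell from 21.3 ± 1.17 to 16.6 ± 1.15 FPKM (SD, n = 3 each, log2 fold change -0.35, limma adjusted p = 0.0309). *Klf2*, an endothelial factor that represses *Pparg*, had a log2 fold change of -0.39 with an adjusted p of 0.0581 and values of 30.6, 30.4 and 25.8 FPKM in TG against 34.8, 36.1 and 43.7 FPKM in WT mice. Of the 3 other C/EBP family genes, 2 were tested and neither was called. *Ddit3*, the stress-induced inhibitor of the family, had 42.9, 36.0 and 30.6 FPKM in TG and 22.9, 29.2 and 19.8 FPKM in WT mice (log2 fold change 0.59, adjusted p = 0.0522), and *Cebpz* had a log2 fold change of -0.05. Among the GATA genes and their cofactors, *Gata6* and *Zfpm1* were tested, at 0.00 and -0.05 on the log2 scale (limma adjusted p = 0.988 and 0.789).

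Of 16 other adipogenic transcription factors tested, 1 rose, 3 fell and 12 were not called, with a median log2 fold change of -0.07. The background shares were 11.6% of all tested loci called higher and 7.03% called lower. *Egr2* (Krox20), which acts upstream of *Cebpb* in the cultured cascade, rose from 1.99 ± 0.206 to 3.18 ± 0.193 FPKM (SD, n = 3 each, log2 fold change 0.48, limma adjusted p = 0.0192). *Rxra*, the dimer partner of PPARγ, *Nr3c1*, the glucocorticoid receptor, and *Tcf7l1* fell, by log2 fold changes of -0.51 (limma adjusted p = 0.0133), -0.50 (0.0112) and -0.34 (0.0212). *Pparg* had 193.2, 103.5 and 95.7 FPKM in TG and 115.6, 169.4 and 101.1 FPKM in WT mice. Its groups overlapped widely, and its log2 fold change was -0.02 (adjusted p = 0.973). Of 12 inhibitors of adipogenesis tested, 0 rose and 2 fell, against the same background shares. A log2 fold change below 0 was found for 7 of the 12, against 51.6% of all tested loci. *Twist2* fell from 8.64 ± 0.711 to 4.63 ± 0.652 FPKM (SD, n = 3 each, log2 fold change -0.78, adjusted p = 0.00474). *Tsc22d3* (GILZ), a glucocorticoid-induced repressor of *Pparg*, fell from 53.0 ± 7.71 to 27.9 ± 4.17 FPKM (SD, n = 3 each, log2 fold change -0.90, adjusted p = 0.00696).

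**Figure D4:**
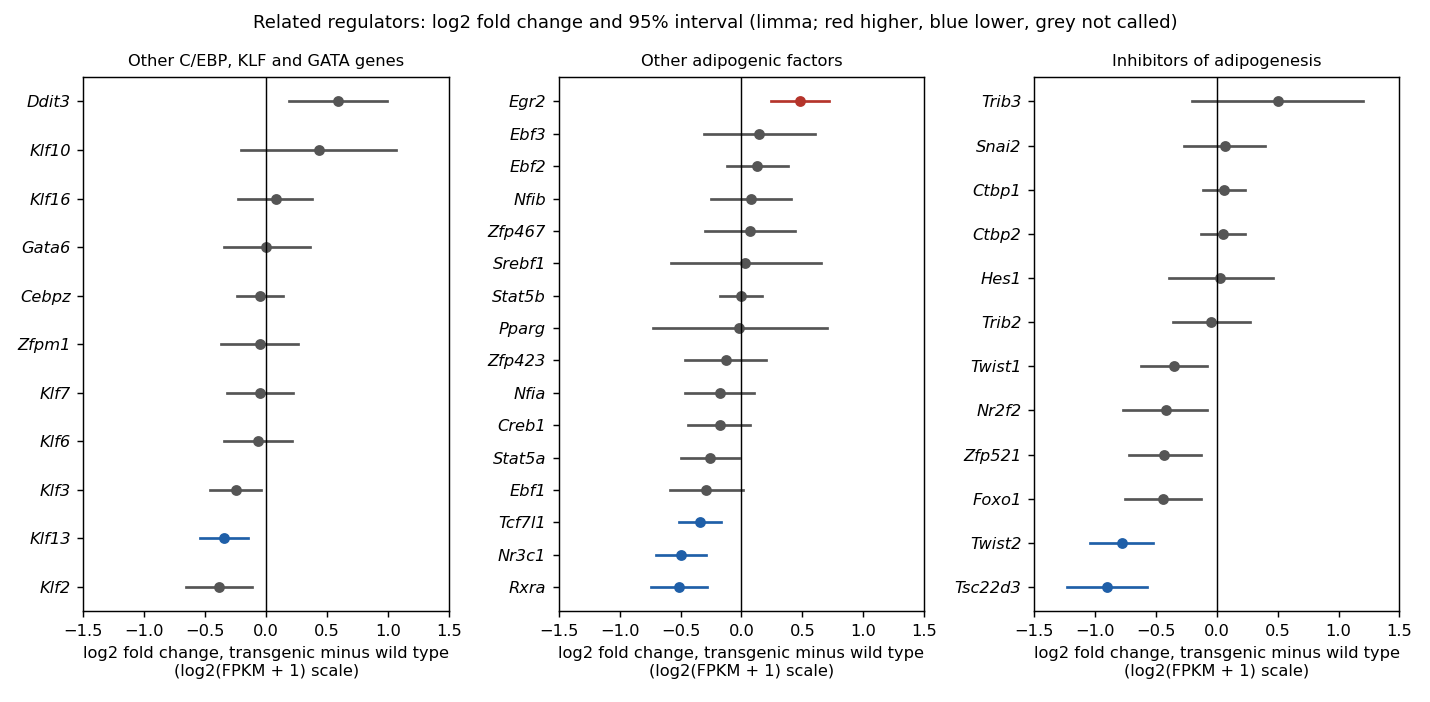
Log2 fold change (TG minus WT, on the log2(FPKM + 1) scale) with the 95% interval from limma for the tested genes of 3 groups, red where the gene rose, blue where it fell and grey where it was not called. *Klf13* is the called gene of the first panel, *Egr2* lies opposite to *Rxra*, *Nr3c1* and *Tcf7l1* in the second, and *Tsc22d3* at -0.90 and *Twist2* at -0.78 are at the low end of the third.

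*Klf9*, *Klf15* and *Cebpd* are themselves induced by glucocorticoids, so genes known to respond to the receptor were read as well. Of 12 such genes, 1 rose, 2 fell and 9 were not called. Over all tested loci 11.6% were called higher and 7.03% lower. The median log2 fold change was -0.35, against -0.01 over all tested loci, and 7 of the 12 were below 0, against 51.6%. The fallen genes were *Tsc22d3* and *Errfi1*, the latter with a log2 fold change of -0.59 (limma adjusted p = 0.0402). *Pdk4*, a brake on pyruvate oxidation that fatty acids and PPARs induce too, rose from 46.7 ± 9.59 to 500.3 ± 80.3 FPKM (SD, n = 3 each, log2 fold change 3.40, adjusted p = 0.000231). *Fkbp5* and *Zbtb16*, strong receptor targets, stood at -0.65 and -0.42 on the log2 scale (limma adjusted p = 0.235 and 0.526), and both varied widely within a genotype. *Ddit4*, *Per1* and *Sgk1* were also below 0, at -0.67, -0.35 and -0.34, while *Angptl4*, *Mt1*, *Mt2* and *Dusp1* were above it, at 0.49, 0.31, 0.15 and 0.06, none of them called. *Fkbp5* was 4.45, 6.47 and 10.8 FPKM in TG and 14.8, 6.71 and 14.2 FPKM in WT mice. The part of glucocorticoid signalling in the values of *Klf9*, *Klf15* and *Cebpd* was not tested.

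Genes known to depend on C/EBP factors in adipocytes fell or were not called. Of 14 such genes, 0 rose, 6 fell and 8 were not called, with a median log2 fold change of -0.49. Over all tested loci 7.03% were called lower. Of the 14, 10 had a log2 fold change below 0, against 51.6% of all tested loci. Among those not called, *Fabp4* and *Slc2a4* were higher in every TG than in every WT mouse. Without *Scd1*, which is listed at 0 in 3 libraries and at 9319, 7086 and 7395 FPKM in the other 3, 7 of 13 were not called and the median was -0.32, an alternative chosen after seeing the data. The fallen genes were the secreted products *Adipoq*, *Retn*, *Agt* and *Cfd*, the lipase *Lpl* and the β3-adrenergic receptor *Adrb3*. The row of *Cfd* is given a wide interval (chromosome 10, 79697304 to 80369637), and whether it holds reads of other genes was not tested. *Lpl* fell from 1560 ± 175.2 to 976.6 ± 62.4 FPKM (SD, n = 3 each, log2 fold change -0.67, limma adjusted p = 0.0209) and *Adrb3* from 161.5 ± 5.43 to 100.8 ± 26.2 FPKM (SD, n = 3 each, -0.71, adjusted p = 0.0384). Of 5 genes that depend on KLF15, *Acss1*, a mitochondrial acetyl-CoA synthetase, rose from 10.2 ± 0.950 to 36.3 ± 0.667 FPKM (SD, n = 3 each, log2 fold change 1.73, adjusted p = 0.000231) and 4 were not called. *Slc2a4* had 217.8, 167.6 and 157.1 FPKM in TG and 127.1, 144.9 and 99.2 FPKM in WT mice, apart but with an adjusted p of 0.0736. *Bcat2*, *Gpt* and *Prodh* had log2 fold changes of 0.16, -0.49 and -0.11. *Gpt* was apart in the other direction, at 108.7, 84.8 and 71.2 FPKM in TG and 125.3, 133.4 and 110.9 FPKM in WT mice (limma adjusted p = 0.0736). For comparison, 11.6% of all tested loci were called higher.

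Markers of other cells were set beside these results, with 11.6% of all tested loci called higher and 7.03% called lower as background. Of 8 brown adipocyte markers, 7 rose, with a median log2 fold change of 2.80. For lymphocytes, 1 of 9 tested markers fell (*Ms4a1*) and the sums were 240.9 to 365.9 FPKM in TG and 343.9 to 485.5 FPKM in WT mice. For progenitors and fibroblasts 0 of 10 were called, with sums of 1454 to 2053 FPKM and 1748 to 2369 FPKM, and for pericytes and smooth muscle 0 of 8, with sums of 201.2 to 303.0 FPKM and 229.5 to 309.1 FPKM. For skeletal muscle 0 of 10 were called, although the median log2 fold change was 2.17. Among adipocyte markers *Adipoq* and *Lpl* fell and 7 were not called. The part of these shifts in the values of the 10 factors was not tested.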

How the data were processed

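RNA from iWAT of 6 mice, 3 per genotype, was made into TruSeq v2 libraries and sequenced as single-end reads of 100 bases. Per the submitters' processing notes, the tools were CASAVA 1.8.2, TopHat2 2.0.9, Bowtie2 2.1.0 and Cufflinks 2.2.1, with the mm10 genome. The authors deposited gene-level FPKM values, 1 column per mouse, and tested genotypes with Cuffdiff on reads. The annotation and options are not given in the sources used here. From the FPKM, log2(FPKM + 1) was fitted by genotype in limma (version 3.58.1, R 4.3.3) with lmFit and a trended eBayes, two-sided and without covariates, over the 11692 of 19445 rows with a mean over 1 FPKM in at least 1 genotype, with Benjamini-Hochberg adjustment over all of them and calls at an adjusted p under 0.05. Fold changes understate the change of low genes. Single values and ratios had exact permutation tests over 20 arrangements. The procedure was first run on simulated data whose changes were larger than those of *Cebpb* and *Cebpd*. That run therefore does not bear on calls of their size. A symbol on several rows was taken from the row of highest mean.

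The 10 genes and all lists were chosen with earlier results of these data known. All 10 genes are described; from the lists, genes past the threshold are named, with others chosen after their values were seen. Lists covered other C/EBP, KLF and GATA genes, other adipogenic factors, inhibitors of adipogenesis, glucocorticoid-responsive genes, C/EBP-dependent and KLF15-dependent genes, immediate early genes, and markers of adipocytes, brown adipocytes, endothelium, mast cells, macrophages, lymphocytes, epithelium, skeletal muscle, progenitors and pericytes. The alternatives were a pseudocount of 0.1, other filters, quantile and median-ratio scaling, no trend, sample weights, a replicate block and each mouse left out in turn. Replicate numbers name different animals. Gene coordinates are those of GENCODE M21 and promoters those of RefSeq (GRCm38.p6, the mm10 assembly). Figures were drawn with matplotlib 3.10.9 in Python 3.11.15.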

Additional observations from a re-analysis of the deposited data

How the results depend on the processing

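The rise of *Cebpb* and the fall of *Cebpd* held under all 14 alternatives. Their log2 fold changes ran from 0.50 to 0.62 and from -0.80 to -0.63, with limma adjusted p up to 0.0251 and 0.0404. The other 8 genes kept the sign of their fold change in all 14. The other filters, the fit without trend and the replicate block leave each fold change as it was, so they could not change a sign. The number of the 10 genes that were lower was 3 with quantile normalization (*Cebpa*, *Cebpd* and *Klf9*) and between 1 and 2 with a mouse left out, *Klf15*, *Klf4* or *Klf9* joining *Cebpd* without TG replicate 1, TG replicate 2 or WT replicate 2. The number higher stayed at 1. Over all loci, 1352 were higher and 822 lower, against 748 and 381 with no filter, where more loci are tested, and 780 to 1295 and 329 to 906 with a mouse left out. Leaving out TG replicate 3, WT replicate 2 or WT replicate 3 moved both counts by over 1.5 times, and TG replicate 1 or WT replicate 1 that of lower loci. The log2 difference of the *Cebpb* to *Cebpa* ratio stayed between 0.72 and 0.89 with a mouse left out, and that of the *Klf15* to *Klf4* ratio, 0.08, ran from -0.06 to 0.32, so it has no direction. Same-numbered mice deviated from their group means with correlations of 0.0129, 0.0344 and 0.0701. These values show little shared deviation by number, but they cannot exclude that same-numbered mice were paired, for example by litter. With a replicate block 1230 loci were higher and 656 lower. The block cannot move the log2 differences of the ratios, 0.78 and 0.08, because each genotype has 1 mouse per number. For *Cebpb* to *Cebpa* the exact permutation test within the 3 pairs gave p = 0.25 (two-sided), the smallest it can give. The absolute depth is unknown. The standard error of the log2 fold change was largest for *Cebpg* (0.24) and *Klf5* (0.22), then *Klf11* (0.17), *Klf4* (0.16) and *Gata2* (0.14).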

Other observations

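Immediate early genes respond within minutes to stimuli that include tissue handling. Of 16 such genes, 3 rose, 1 fell and 12 were not called, with a median log2 fold change of -0.02. Among all tested loci, 11.6% were called higher and 7.03% lower. *Jun* rose from 14.4 ± 1.51 to 21.4 ± 2.62 FPKM (SD, n = 3 each, log2 fold change 0.54, limma adjusted p = 0.0202), *Atf3* from 1.71 ± 0.275 to 3.74 ± 1.08 FPKM (SD, n = 3 each, 0.78, adjusted p = 0.0308), and *Egr2* is described above. *Zfp36* fell from 50.2 ± 3.18 to 37.1 ± 2.96 FPKM (SD, n = 3 each, -0.43, adjusted p = 0.0202). *Fos* and *Egr1*, with log2 fold changes of -0.04 and 0.19, were not called. The values of *Jun* stood apart between genotypes, as did those of *Cebpb* and of 42.9% of all tested loci. Of the 16 genes, 9 stood apart in this way, in both directions. The part of tissue handling was not tested.

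The loci whose log2(FPKM + 1) values ran most like those of the called genes over the 6 libraries were *Abcc4* (Pearson's r = 0.997) and *Snx10* (0.995) for *Cebpb*, and *Retnla* (0.995) and *Antxr2* (0.995) for *Cebpd*. These correlations describe 6 libraries in 2 genotypes and rest mostly on the gap between genotypes. *Snx10*, a sorting nexin, had 45.1, 47.1 and 45.3 FPKM in TG and 33.0, 29.6 and 29.9 FPKM in WT mice. *Retnla*, a resistin-like secreted protein made in white fat and in macrophages, had 345.0, 536.1 and 310.4 FPKM in TG and 1072, 1068 and 871.7 FPKM in WT mice.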
